A study of Mus musculus with 80 samples.

Results

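Laboratory mice called C57BL/6 belong to several substrains that have been bred apart for decades, and a small set of genes is known to differ between them in sequence, copy number or expression. Of the 17097 genes measured here, 8 such genes were examined: Wdfy1, Nnt, Entpd4, Ide, Nlrp12, Snap29, Cyfip2 and Crb1. Each was taken with every probe set that the platform annotation assigns to that gene alone, which gave 20 of the 45037 probe sets tested. Wdfy1 and Ide had 4 probe sets each, Snap29 had 3, Nnt, Entpd4, Cyfip2 and Crb1 had 2 each, and Nlrp12 had 1. Another probe set names Cyfip2 together with Fndc9 and was not used.

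The arrays came from untreated mice without serum carboxylesterase (Es-1, gene symbol Ces1c), written KO below, and from wild-type (WT) mice, both described by the labels as on a C57BL/6 background with no substrain named. Neither the age of the animals nor the way the KO line was bred to its background is given in the sources used here. Frozen brain, heart, kidney, liver and lung of both sexes were measured on 80 arrays of the Affymetrix HT MG-430 PM type, with 4 arrays for each genotype, sex and tissue and so 16 arrays per tissue. Values are log2 signals normalised by the authors, so a difference of 1 is a doubling of signal, and a level may be compared between samples of 1 probe set but not between probe sets. The animal number in each title was read as 1 animal, so the study holds 23 animals, of which 12 are KO and 11 WT. The 4 tissues other than lung all come from the same 16 mice (4 females and 4 males of each genotype). Of these 16, 9 also have a lung array, and the other 7 animals have a lung array only. Differences of KO and WT or of the sexes within a tissue are tested against the spread between animals. The test between animals uses the spread of tissues within an animal instead. The main comparisons of tissues take the animal as a random block with a low correlation of 0.0602, so the spread between animals enters them. Only those with each animal as a fixed term use the spread within an animal alone.

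As background, Wdfy1 encodes an endosomal adaptor protein that links toll-like receptors to the adaptor Ticam1. Nnt encodes the nicotinamide nucleotide transhydrogenase of the inner mitochondrial membrane, which makes NADPH, and a deletion of several of its exons is known in C57BL/6J. Entpd4 encodes a nucleoside diphosphatase of the Golgi and lysosomes. Ide encodes the insulin-degrading enzyme, and a segment that holds Ide and Fgfbp3 is known to vary in copy number among C57BL/6J mice. Nlrp12 is a regulator of inflammation of the NOD-like receptor family, Snap29 a SNARE protein of membrane fusion, and Cyfip2 a subunit of the WAVE complex that drives actin branching. Crb1 encodes an apical polarity protein of photoreceptor support cells. Known differences between C57BL/6J and C57BL/6N include single base changes in Cyfip2 and Crb1, which a probe set of an expression array does not read. Where the probes lie relative to the Nnt deletion was not analysed here.

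Labels were checked first. In 80 of 80 arrays the marker list with the highest mean was that of the labelled tissue. The heart array of KO female 994 carries the word lung in its tissue field and heart in its title, and was kept as heart. In the liver, Ces1c lay between 9.70 and 10.17 in 7 KO animals and between 12.11 and 12.63 in the 8 WT animals, while the library labelled KO male 952 lay at 12.04, which goes against its label. KO counts, ranges and means below include 952 as labelled. The hearts of WT male 903, KO female 982 and KO male 962 had means of 8.88 to 11.00 over the 6 liver markers, highest in WT 903, against 3.81 to 6.07 in the other 13 hearts. These 3 hearts of high liver markers are part of every heart value below unless they are said to be left out. Markers of another tissue were raised outside these hearts too. The highest liver-marker mean was 8.01 in KO lungs (median 3.58), 8.63 in WT kidneys (median 7.17) and 6.70 in WT brains (median 5.17). Lung markers reached 5.70 in KO hearts (median 3.56), and heart markers ran from 5.72 to 9.88 over the lungs. These arrays were kept, and the part of such signal in the values below was not tested. The highest correlation between any pair of arrays was 0.9959.

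Wdfy1 was the member called for genotype, in the lung alone. Outside the lung its WT animals lay further apart from each other than the means of the genotypes. Its 4 probe sets were called higher in KO in the lung, by 1.91 (SE 0.18), 1.92 (SE 0.18), 2.23 (SE 0.26) and 0.69 (SE 0.10) on the log2 scale (limma adjusted p = 0.000616, 0.000616, 0.00494 and 0.0285 in that order). No other member was called for KO against WT in any tissue. Of the WT animals high in Wdfy1 in the other tissues, 876, 902 and 936, only 876 gave a lung. The WT lungs therefore hold fewer high animals than the other tissues. The brightest Wdfy1 probe set, 1437358_PM_at, is described in the following values, and the others are compared with it further on.

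In the lung, KO animals ranged from 7.94 to 8.82 (the highest being the animal labelled KO 952) with a median of 8.50, and WT animals from 6.19 to 7.73 with a median of 6.46. All 8 KO lungs lay above all 8 WT lungs by this probe set, while by 1435588_PM_at the lung of WT 876 (7.11) lay above that of KO 1259 (6.89). The difference of 1.91 is a 3.76-fold higher signal in KO (adjusted p = 0.000616, limma with Benjamini-Hochberg adjustment over 45037 probe sets). Of all probe sets, 0.0111% were called in the lung, 5 in all, and 4 of the 5 were those of Wdfy1. With 1 lung left out at a time, 3 or 4 tests of member probe sets over the 5 tissues were called, against 4 with all lungs. With females alone the difference was 1.75 and was not called (limma adjusted p = 0.169). The 9 lungs of animals that also gave other tissues differed by 1.81 (limma adjusted p = 0.9998), and the lungs of animals numbered under 1000 by 1.39 (limma adjusted p = 0.523).

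In the heart, KO animals ranged from 7.13 to 8.12 (median 7.86) and WT animals from 4.52 to 8.03 (median 4.81). The WT hearts thus covered nearly the whole range of the tissue, and the groups overlapped. No end of these ranges was a heart with high liver markers. KO minus WT was 1.95 (SE 0.47, 3.88-fold) and was not called (adjusted p = 0.9995, limma, where 0.00222% of probe sets were called). In the brain, KO animals ranged from 7.62 to 8.66 (median 8.50) and WT animals from 5.70 to 8.67 (median 6.04). The difference there was 1.52 (SE 0.39, 2.87-fold; adjusted p = 0.414, limma, 0.00222% of probe sets called).

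The kidney and liver repeated this picture of a narrow KO group and a wide WT group. Kidney values were 7.69 to 8.88 in KO (median 8.66) and 5.86 to 8.55 in WT (median 6.23). Their difference was 1.68 (SE 0.37, 3.21-fold; adjusted p = 1, limma). No probe set was called in the kidney at all, which is 0%, although 1524 had an unadjusted p under 0.05 by limma. Liver values were 7.71 to 8.32 in KO (median 7.82) and 5.43 to 8.58 in WT (median 5.91), with a difference of 1.47 (SE 0.38, 2.77-fold; adjusted p = 0.997, limma, 0.00666% of probe sets called).

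With the animal as a block over all 80 arrays, the heart difference was 1.96 and was called (adjusted p = 0.0335, limma), as was that in the lung (1.83, adjusted p = 0.0287), and 7 member tests in place of 4 were called. That fit used a correlation within animals of 0.0602, the consensus over all probe sets, so it took the tissues of 1 mouse as nearly independent although Wdfy1 levels went together within a mouse. Without the hearts of WT 903, KO 982 and KO 962 the heart difference was 1.90 (adjusted p = 0.968, limma). Leaving out the animal labelled KO male 952 from every tissue gave 1.48 in the liver and 1.86 in the lung, where the call held (limma adjusted p = 0.00293).

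The SDs show the same contrast between the genotypes. The lung SD of WT lacks the high animals 902 and 936, which gave no lung. Over the 8 animals each, the SD was 0.44 in KO and 1.18 in WT brains, 0.42 and 1.45 in hearts, 0.40 and 1.08 in kidneys, 0.25 and 1.17 in livers, and 0.26 and 0.48 in lungs. Whether the genotype difference depends on the tissue was tested over all 80 arrays, and none of the 20 member probe sets was called or had an unadjusted limma p under 0.05 (16 of all probe sets were called, 0.0355%). With each animal as a fixed term, added after the data were seen, none was called either (13 of all probe sets were), but 5 had an unadjusted limma p under 0.05, 3 of them of Wdfy1, with 0.00183 for 1437358_PM_at (adjusted p = 0.616). Over the means of brain, heart, kidney and liver of each animal, KO minus WT was 1.66 (SE 0.40), with means of 8.08 in the 8 KO and 6.43 in the 8 WT animals, a 3.15-fold difference. It was not called (adjusted p = 0.999, limma). Of all probe sets 0.00444% were called on these animal means, 2 in all, and 0 of the 20 member probe sets. The 4 Wdfy1 probe sets had unadjusted limma p-values of 0.00027 to 0.00079 there.

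**Figure D1:**
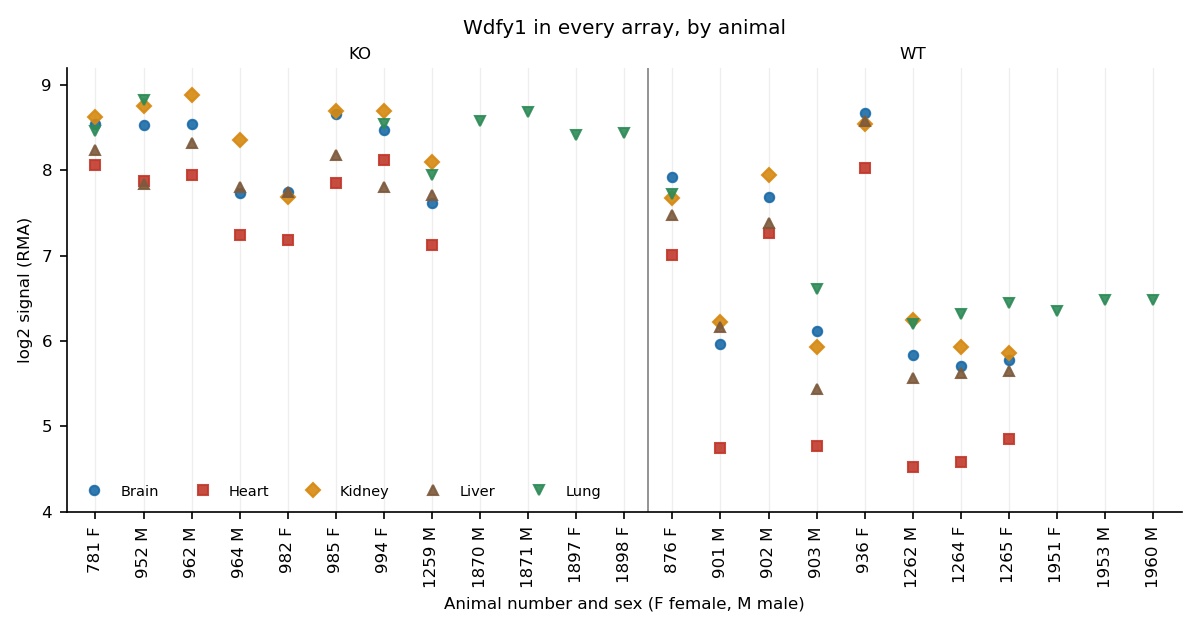
The log2 signal of Wdfy1 probe set 1437358_PM_at on the vertical axis for each of the 23 animals on the horizontal axis, with 1 marker for each tissue. All 12 animals labelled KO, 952 among them, lie above 7.1 in each tissue they gave, while WT animals 876, 902 and 936 lie at 7.0 or higher and the other 8 WT animals at 6.60 or lower.

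Within the WT group, an animal that was high in 1 tissue was high in each tissue it gave, and the heart was the lowest tissue in each of the 8 WT mice that gave it. WT female 936 had 8.67 in brain, 8.03 in heart, 8.55 in kidney and 8.58 in liver, which is inside or above the KO range in each of them. WT male 902 had 7.68, 7.26, 7.94 and 7.38 in the same order. WT female 876 had 7.92, 7.01, 7.67 and 7.47, and 7.73 in lung.

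The other WT animals were low throughout. WT male 901 had 5.97 in brain, 4.74 in heart, 6.22 in kidney and 6.16 in liver, and WT male 903 had 6.12, 4.77 (a heart with high liver markers), 5.93 and 5.43, and 6.60 in lung. WT animals 1262, 1264 and 1265 lay between 4.52 and 4.85 in heart and between 5.70 and 5.83 in brain. The lung-only WT animals 1951, 1953 and 1960 had 6.36, 6.48 and 6.48. So all 6 WT animals numbered over 1000 were low, and of the 5 numbered under 1000, 3 were high and 2 low. The number range is only what the titles give, and what it stands for is not stated.

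Among KO animals, a smaller step parted 3 animals from the rest. KO male 1259 had 7.94 in lung, 7.62 in brain, 7.13 in heart, 8.09 in kidney and 7.71 in liver. KO female 982 had 7.75, 7.19 (again a heart with high liver markers), 7.69 and 7.74 in brain, heart, kidney and liver, and KO male 964 had 7.74, 7.25, 8.36 and 7.80. The other 5 KO animals with these tissues lay between 8.48 and 8.66 in brain and between 7.85 and 8.12 in heart.

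Taken over both genotypes, the brain and the heart showed 3 levels by 1437358_PM_at, and the same animals made up each level in both tissues. The low level held WT animals 901, 903, 1262, 1264 and 1265, at 5.70 to 6.12 in brain and 4.52 to 4.85 in heart. The middle level held WT 876 and 902 and KO 964, 982 and 1259, at 7.62 to 7.92 in brain and 7.01 to 7.26 in heart. The top level held WT 936 and KO 781, 952, 962, 985 and 994, at 8.48 to 8.67 in brain and 7.85 to 8.12 in heart. The hearts with high liver markers were 1 in each level (903, 982 and 962), inside the range of the others.

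On the linear scale these brain levels were signals of 52.0 to 69.5, 196 to 242 and 356 to 407. The heart levels were 23.0 to 28.8, 129 to 154 and 230 to 279. The lungs fell in the same way, with 7 WT lungs at 73.2 to 97.3, WT 876 and KO 1259 at 212 to 246, and 7 KO lungs at 341 to 452. In the kidney and liver only the lower gap was seen, from 6.24 to 7.67 and from 6.16 to 7.38. These levels were drawn after the values were seen, at the 2 largest gaps of each tissue, and were not compared by a test. A gap at least as wide as that between the low and the middle animals was found in 0.588% of all probe sets in lung, 0.14% in brain, 0.224% in heart, 0.271% in kidney and 2.2% in liver.

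Whether animals of 1 genotype and sex differ from each other over their 4 tissues was tested with a moderated F over 64 arrays. Of all 45037 probe sets 1421 were called, which is 3.16%, and 7 of the 20 member probe sets were: 4 of Wdfy1, 2 of Ide and 1 of Entpd4. The probe sets 1437358_PM_at, 1435588_PM_at and 1424749_PM_at of Wdfy1 stood at ranks 1, 2 and 3 of the whole array, with F values of 81.9 (adjusted p = 2.6e-20), 63.2 (adjusted p = 2.1e-18) and 31.4 (adjusted p = 7.9e-13), all from limma. The dimmest, 1453426_PM_a_at, had an F of 6.34 (limma adjusted p = 0.00134) and rank 109. With 1 animal left out at a time, the F of 1437358_PM_at lay between 54.6 (without WT female 936) and 96.4. Without the hearts of 903, 982 and 962 it was 74.3 (adjusted p = 3.2e-18, limma), 7 member probe sets were called again, and 933 of all probe sets were.

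The share of the variance between animals, after the tissue means were removed, was 97.3% for 1437358_PM_at, 96.7% for 1435588_PM_at, 93.4% for 1424749_PM_at and 72.2% for 1453426_PM_a_at, against a median of 29.5% over all probe sets. These shares include the differences of genotype and sex. In 11 of the 16 animals 1437358_PM_at lay on 1 side of the tissue median in all 4 tissues other than lung. That count was reached by 0.0933% of all probe sets, whose median was 2 animals. The first 3 probe sets followed each other closely over the 16 animals (r of 0.97 to 0.99), and the dimmest followed them with r of 0.83 to 0.91. By the first 3 probe sets the same 5 WT animals were the lowest in brain, heart, kidney and liver. The step between middle and top animals held less well. Probe set 1424749_PM_at kept it in brain and lung, but its hearts ran on through KO 982 (5.62), the animal labelled KO 952 (5.71), KO 781 (5.75) and KO 964 (5.83). Probe set 1435588_PM_at had no such step in brain, where KO 982 read 6.94 and KO 962 7.12 with the animal labelled KO 952 between them, and in heart it put 952 (6.41) among the middle animals.

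Within the ranges of the animal number, KO minus WT of 1437358_PM_at kept its direction. Among animals numbered under 1000 it was 1.39 in lung, 0.92 in brain, 1.24 in heart, 1.19 in kidney and 0.86 in liver, and none of these was called. Among animals numbered over 1000 it was 2.03 in lung, with 5 KO and 6 WT mice, and was called (adjusted p = 8.2e-05, limma). Outside the lung the KO side of that range is 1 mouse, 1259, set against 3 WT mice, at 1.79 in brain, 2.60 in heart, 1.85 in kidney and 2.15 in liver. These 4 values compare that mouse, not the genotypes.

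The genes beside Wdfy1 did not share its pattern. The 3 nearest measured genes on each side in the GRCm38.p6 gene order are Utp14b, Kcne4, Scg2, Mrpl44, Fam124b and 2310015K22Rik. None was called between animals or for KO against WT, and their correlations with Wdfy1 over the 16 animal means were -0.05 to 0.39. Among 17096 genes compared, each by 1 probe set, those with the most similar animal means were Tbccd1 (r = 0.81), Snrnp35 (r = 0.74) and Pagr1a (r = 0.74). The most opposite were Gm16794 (r = -0.83), Mmp9 (r = -0.76) and Snx29 (r = -0.75). None of these 6 was called between animals (adjusted p of 0.461 to 0.977, limma). Within genotype and sex the r values were 0.62 to 0.70 and -0.73 to -0.66. They are extremes picked from many genes, and how far they follow the separated levels of Wdfy1 was not tested.

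Of 13 listed genes of endosomal toll-like receptor signalling, the setting in which Wdfy1 is known to act, 11 were measured. None was called for KO against WT in any tissue, in either direction. The smallest p-values belonged to Tbk1 in brain (0.14, SE 0.07), Irf3 in heart (0.15, SE 0.09) and kidney (0.13, SE 0.08), Unc93b1 in liver (-0.33, SE 0.15) and Tlr9 in lung (-0.17, SE 0.07). Ticam1, the adaptor that Wdfy1 recruits, was called between animals (adjusted p = 0.00336, limma) and its animal means had an r of 0.21 with those of Wdfy1 (n = 16). Lung marker lists of immune cells overlapped between the genotypes: neutrophil 5.04 to 6.73 in KO and 5.39 to 6.96 in WT, T cell 4.21 to 5.62 and 5.10 to 5.85, B cell 5.73 to 7.81 and 6.71 to 7.67. Their part in the lung values was not tested, and in bulk tissue fewer cells of a type and less RNA per cell cannot be told apart.

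Ide also differed between animals and was not called for genotype in any tissue. For its brightest probe set, 1423120_PM_at, KO minus WT of the animal means was -0.06 (SE 0.13), with means of 10.03 and 10.08. The moderated F between animals was 11.5 (adjusted p = 2.3e-06, limma, rank 20), and for 1435140_PM_at it was 12.8 (adjusted p = 5.6e-07, limma, rank 17). The dimmer probe sets 1423121_PM_at (adjusted p = 0.105) and 1453988_PM_a_at (adjusted p = 0.329) were not called by limma. Animals accounted for 74.0%, 73.2%, 55.8% and 37.5% of the variance in these 4 probe sets, in that order.

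KO male 1259 was the lowest animal. It had 8.29 in brain, where the others ranged from 9.01 to 9.67, and 9.47 in heart, where the others ranged from 10.08 to 10.76. In kidney it had 9.45 (next lowest 9.72) and in lung 8.74 (next lowest 9.34). In liver it had 10.01 and was second to KO female 994 at 9.70.

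Relative to the tissue median this animal was lower 2.09-fold in lung, 1.83-fold in brain, 1.92-fold in heart, 1.65-fold in kidney and 1.44-fold in liver. Without KO male 1259 the F of 1423120_PM_at was 5.92 (adjusted p = 0.00613, limma) and that of 1435140_PM_at was 8.18 (adjusted p = 0.000373, limma), so both calls held. Without KO female 994 they were 28.4 and 25.3, and without the hearts of 903, 982 and 962 they were 10.1 and 12.5, called again. In all 4 tissues other than lung, KO 982, 985 and 962 and WT 936 lay above the tissue median, and KO 781, the animal labelled KO 952, KO 1259 and WT 1262 and 1264 below it. That makes 9 of 16 animals on 1 side, a count that 0.462% of all probe sets reached, and for 1435140_PM_at it was 11. The low liver of KO female 994 stood against its other tissues, which were 9.59 in brain, 10.67 in heart, 10.27 in kidney and 9.95 in lung.

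The bright pair of Ide probe sets followed each other over the 16 animals (r = 0.95), and other pairs had r of 0.15 to 0.66. Probe set 1423121_PM_at was lower in males by 0.64 (SE 0.14) in brain and by 0.75 (SE 0.20) in heart. Neither difference was called (adjusted p = 0.0801 and 0.236, limma).

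**Figure D2:**
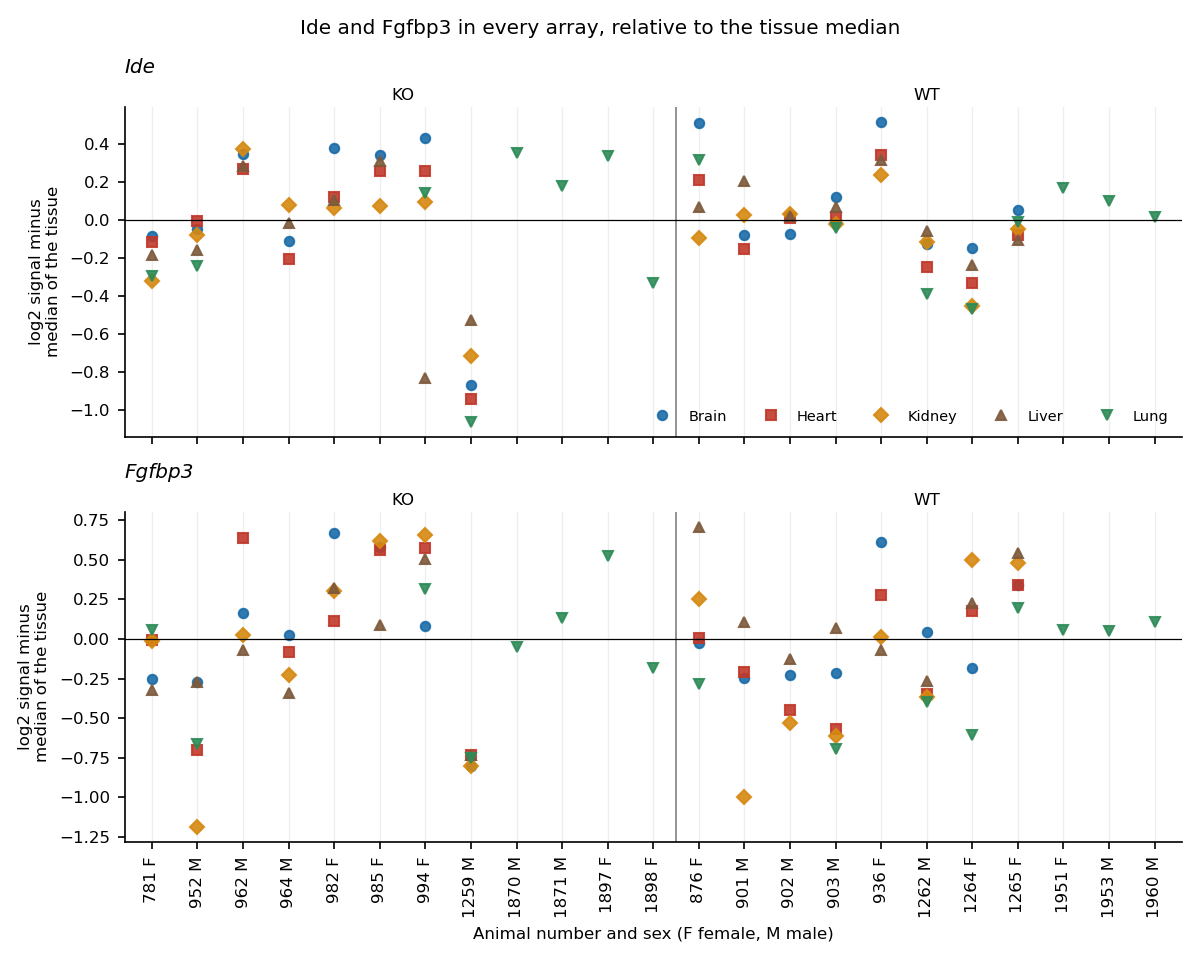
Log2 signal minus the median of the tissue for Ide probe set 1423120_PM_at (upper panel) and Fgfbp3 (lower panel), by animal, with 1 marker for each tissue and separate vertical scales. KO male 1259 lies below 0 in all 5 tissues in both panels, and the points of the 2 genes part in several other animals, such as WT female 1264.

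Fgfbp3, a secreted carrier of fibroblast growth factors and the gene known to vary in copy number with Ide, was measured by 1 probe set. It was called between animals (F of 4.66, adjusted p = 0.0109, limma). KO male 1259 was the lowest animal in brain at 5.16 (tissue median 0.81 higher), heart at 4.41, liver at 3.21 and lung at 5.10, and in kidney, at 4.54, it lay above the animal labelled KO 952 and WT 901 alone. This is 1.66 to 1.75-fold under the tissue medians.

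Over the 16 animal means Fgfbp3 and Ide had an r of 0.61 (rho = 0.48), an r of 0.37 without the 2 animals farthest from the median of Ide, and 0.67 within genotype and sex. All these points share their arrays. Fgfbp3 was also lower in males in the kidney by 0.94 (SE 0.16; adjusted p = 0.000728, limma), where Ide was not. Its KO minus WT difference in brain was 0.01 (SE 0.16).

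The genes around Ide gave mixed values. Btaf1, a regulator of TATA-binding protein, was called between animals (F of 11.0, adjusted p = 4.4e-06, limma) and had an r of 0.45 with Ide. It was higher in males in the liver by 0.59 (SE 0.12; adjusted p = 0.0114, limma). Hhex, a homeobox factor, was called as well (limma adjusted p = 0.0147, r = -0.32). Marchf5, Cpeb3, Kif11 and Exoc6 were not called, with r of -0.67, 0.01, -0.25 and -0.33.

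Of 17096 genes compared, the animal means most like those of Ide were found for Mfap1a (r = 0.87), Taf1 (r = 0.85) and Mfsd2a (r = 0.84). The most opposite were Krtap12-1 (r = -0.86), an immunoglobulin kappa variable gene (r = -0.86) and Apol6 (r = -0.84). Without the 2 farthest animals Apol6 fell to -0.50, Krtap12-1 to -0.68 and the immunoglobulin gene to -0.69. Mfap1a fell to 0.75 and Taf1 and Mfsd2a to 0.78. The genes were picked by their r with those animals included, so the falls cannot show how far the values rest on them. Within genotype and sex the r values were 0.89 to 0.91 and -0.88 to -0.83. As extremes picked from so many genes, these r values were not tested. Among 7 measured genes of insulin and amyloid peptide degradation none was called for KO against WT in either direction. The smallest p-values were those of Insr in brain (-0.10), App in heart (0.06), Mme in kidney (0.22), Pitrm1 in liver (0.34) and Ece2 in lung (-0.34).

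Entpd4 differed by sex in the kidney. Its bright probe set 1449190_PM_a_at ranged from 9.22 to 10.20 in male kidneys (median 9.91) and from 8.42 to 8.96 in female kidneys (median 8.81), so that all 8 males lay above all 8 females. Male minus female was 1.07 (SE 0.10, 2.11-fold; adjusted p = 1.7e-06, limma). In the kidney 13% of all probe sets were called for sex, and 3 of the 20 member probe sets, the others being those of Cyfip2. The share of the members there is thus near that of the array. With the animal as a block over all tissues, 6 member tests of sex were called in place of 3. Calls over all probe sets moved as well, from 5876 to 4617 in kidney and from 1205 to 5148 in liver. They moved from 126 to 215 in brain, from 61 to 190 in heart and from 23 to 52 in lung.

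In brain, heart, liver and lung no member probe set was called for sex, where 0.28%, 0.135%, 2.68% and 0.0511% of all probe sets were. Entpd4 medians in males and females were 8.26 and 8.18 in brain, 8.94 and 8.89 in heart, 7.62 and 7.38 in liver, and 7.10 and 7.25 in lung. A test of the male minus female difference between tissues, added after the data were seen, called Entpd4 (F of 17.4, adjusted p = 9.4e-08, limma), Nlrp12 and 1 Cyfip2 probe set among 4586 of all probe sets (10.2%). With each animal as a fixed term 7 member probe sets were called in place of 3, among 4584 of all probe sets. Those added were the second of Cyfip2 (adjusted p = 0.00761, limma) and 3 of Ide (adjusted p of 0.0115 to 0.0483, limma).

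KO minus WT of Entpd4 was -0.18 (SE 0.12) in lung, -0.24 (SE 0.10) in kidney, -0.25 (SE 0.12) in heart, -0.23 (SE 0.10) in brain and 0.01 (SE 0.14) in liver. None of these was called (adjusted p of 0.656 to 1, limma). Values in brain were 7.68 to 8.30 in KO and 8.02 to 8.47 in WT, which overlap. Between animals the F was 5.17 (adjusted p = 0.00596, limma, rank 244). That call was lost without the heart (F of 4.44, adjusted p = 0.110), without the kidney (F of 2.74, adjusted p = 0.403) and without the animal labelled KO male 952 (F of 3.23, adjusted p = 0.0849), all from limma, and held without the hearts of 903, 982 and 962 (F of 5.35, adjusted p = 0.00818, limma). WT 901 and 902 were high and KO 781 and 982 low in all 4 tissues other than lung, and 28.8% of all probe sets had at least that many such animals.

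**Figure D3:**
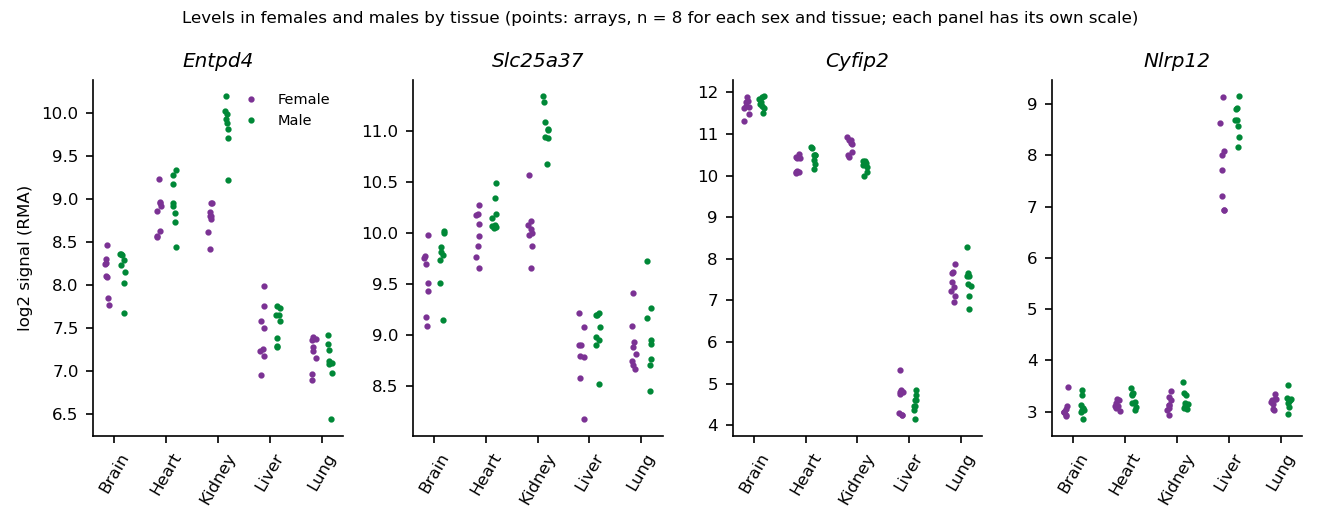
Log2 signal in females and males, by tissue, for Entpd4 (1449190_PM_a_at), Slc25a37, Cyfip2 (1449273_PM_at) and Nlrp12, with 8 arrays for each sex and tissue and a separate vertical scale in each panel. In the kidney all males lie above all females for Entpd4 and Slc25a37 and below them for Cyfip2, while Nlrp12 is above 3.6 in the liver alone.

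Slc25a37, the mitochondrial iron carrier mitoferrin, is the measured gene next to Entpd4 in the GRCm38.p6 gene order, and it was the gene most like Entpd4 on the whole array. Their animal means had an r of 0.95 over 16 animals, 0.92 without the 2 farthest animals and 0.94 within genotype and sex. In the kidney Slc25a37 was higher in males by 0.996 (SE 0.10; adjusted p = 4.1e-06, limma). KO minus WT of Slc25a37 was -0.23 in lung, -0.22 in kidney, -0.22 (SE 0.08) in heart, -0.32 (SE 0.12) in brain and -0.18 in liver. None was called, and Slc25a37 was not called between animals either (adjusted p = 0.118, limma).

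The other genes near Entpd4, namely Stc1, Nkx2-6, Loxl2, Chmp7 and 4930480K23Rik, had r of -0.22 to 0.42 with it and none was called. After Slc25a37 the most similar genes were Abcg2 (r = 0.88) and Mrpl2 (r = 0.85), and the most opposite Sox7 (r = -0.87), Ttc3 (r = -0.86) and Slc16a5 (r = -0.84). Entpd4b is a near-identical copy of Entpd4 with no probe set of its own here, so signal of either may be read as Entpd4. The second Entpd4 probe set, 1431761_PM_at, stayed between 3.11 and 4.37 in all arrays, near the array medians of 3.94 to 4.22.

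Cyfip2 was lower in male kidneys by both probe sets. For 1449273_PM_at male kidneys ranged from 10.00 to 10.36 and female kidneys from 10.46 to 10.92, with no overlap, a difference of -0.48 (SE 0.08; adjusted p = 0.000954, limma). For 1428347_PM_at they ranged from 9.02 to 9.37 and from 9.53 to 10.07, a difference of -0.56 (SE 0.08; adjusted p = 0.000101, limma). The sex difference depended on the tissue for the first (adjusted p = 0.0427, limma) and missed the threshold for the second (adjusted p = 0.0517, limma), which was called with each animal as a fixed term. KO and WT means of 1449273_PM_at were 11.67 and 11.73 in brain and 10.49 and 10.46 in kidney. Of 9 measured WAVE complex genes none was called for KO against WT, the smallest p-values being those of Wasf3 in brain (0.27), Wasf2 in heart (0.10), Wasf1 in kidney (0.12) and lung (0.14) and Nckap1l in liver (-0.33).

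Nlrp12 was high in liver alone. Its probe set had a mean of 8.25 in 16 livers (SD 0.73) and of 3.08 to 3.20 in the other tissues, below the lowest array median. Livers ranged from 8.16 to 9.15 in males (median 8.68) and from 6.92 to 9.14 in females (median 7.86), the highest female being KO 994. Male minus female was 0.85 (SE 0.28) and was not called within the liver (adjusted p = 0.140, limma), while the test of this difference between tissues called it (adjusted p = 0.0135, limma). Outside the liver the signal is too dim to show a sex difference. The test between tissues pools the livers with those dim tissues, so its p-value does not measure the spread of the livers.

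KO minus WT in the liver was 0.27 (SE 0.28), with KO values of 6.93 to 9.15 and WT values of 6.92 to 8.93. The neutrophil list in the liver lay at 4.14 to 5.18 in KO and 4.10 to 4.71 in WT, and its part in Nlrp12 was not tested. In the heart of WT male 903, whose liver markers averaged 11.00, Nlrp12 read 3.47, the highest of the 16 hearts. None of the 6 measured inflammasome genes was called for KO against WT. The largest difference among them was that of Il1b in lung, at -0.55.

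Nnt separated the tissues sharply and was not called for genotype in any of them. Probe set 1416105_PM_at had means of 11.24 (SD 0.14) in heart, 9.76 (SD 0.13) in kidney, 8.94 (SD 0.27) in liver, 7.24 (SD 0.19) in lung and 6.66 (SD 0.19) in brain, and each of the 10 tissue pairs was called. Over the animal means KO minus WT was -0.005 (SE 0.055), the means being 9.148 for KO and 9.153 for WT. In the heart, where Nnt was brightest, KO minus WT was -0.08 (SE 0.07), and no animal lay outside 10.97 to 11.49, ends that were not hearts with high liver markers.

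No animal therefore stood apart in Nnt the way the WT animals did in Wdfy1, and neither probe set was called between animals (adjusted p of 0.405 and 0.752, limma). WT male 903 was low and KO 982 and WT 1265 were high in all 4 tissues other than lung, and 49.4% of all probe sets had at least 3 such animals. The second probe set, 1456573_PM_x_at, kept the order of the tissues, from 10.86 in heart to 6.44 in brain. The neighbours Mrps30, 1700003P14Rik, Fgf10, Paip1, 4833420G17Rik and Ccl28 were not called for genotype, and 4833420G17Rik was called between animals (adjusted p = 0.0157, limma). Among 10 measured genes of mitochondrial redox balance, none was called for KO against WT, with Idh2 in brain (-0.25, SE 0.08), Glrx2 in heart (-0.13), Sod2 in kidney (0.07), Aldh1l2 in liver (-0.12) and Txn2 in lung (-0.12) having the smallest p-values.

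Snap29 was highest in kidney (6.66, SD 0.19, probe set 1423356_PM_at), followed by liver (6.36, SD 0.32), lung (5.87, SD 0.25), heart (5.60, SD 0.26, the lowest being WT 903 at 5.12) and brain (5.28, SD 0.30), with all 10 pairs called. The dimmer probe set 1423354_PM_at was higher in KO livers by 0.27 (SE 0.09), with means of 5.19 and 4.92, and was not called (adjusted p = 0.997, limma). The brightest probe set had 0.21 there, in the same direction, while 1423355_PM_at had -0.02, so not all probe sets showed it. No Snap29 probe set was called between animals, and its neighbours Tmem191c, Pi4ka, Serpind1, Crkl, Aifm3 and Lztr1 were called in no comparison of genotype or animals. None of 7 measured SNARE genes was called for KO against WT. Those with the smallest p-values were Snap47 in brain (0.08), Snap25 in heart (0.15) and kidney (0.66), Ykt6 in liver (0.12) and Vamp7 in lung (0.13).

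Crb1 stayed near background in these tissues. Its 2 probe sets lay between 2.82 and 4.84 over all 80 arrays, and KO minus WT of the animal means was 0.00 (SE 0.07) and 0.03 (SE 0.05). The liver of WT female 1264 read 4.84, and all other readings of that probe set were at or under 4.14. No Crb1 probe set, no neighbour (2310009B15Rik, 1700019P21Rik, Dennd1b, 4933436E23Rik, Zbtb41 and Aspm) and none of 8 measured apical polarity genes was called for KO against WT. Pals1 in brain (-0.12), Patj in heart (-0.13), Lin7a in kidney (0.22), Lin7c in liver (0.16) and Pard6a in lung (-0.26) had the smallest p-values of that list. The genes next to Cyfip2 (Sox30, Adam19, Nipal4, Fndc9, Fam71b and Med7) and to Nlrp12 (AU018091, D7Ertd143e, Myadm and Cacng7) were not called for genotype or between animals either.

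For genotype as a whole, 4 of 100 tests (20 probe sets in 5 tissues) were called, and 24 had an unadjusted limma p under 0.05. Of those 24, 19 belonged to Wdfy1 and 5 to the 80 tests of the other members, whose differences ran from -0.25 to 0.27. The difference of the KO effect between the sexes was also tested, tissue by tissue, and 0 of 100 member tests were called by limma, with 3 at an unadjusted p under 0.05, all of Crb1. Of all probe sets, 0% were called there in brain, heart, kidney and liver and 0.00222% in lung.

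**Figure D4:**
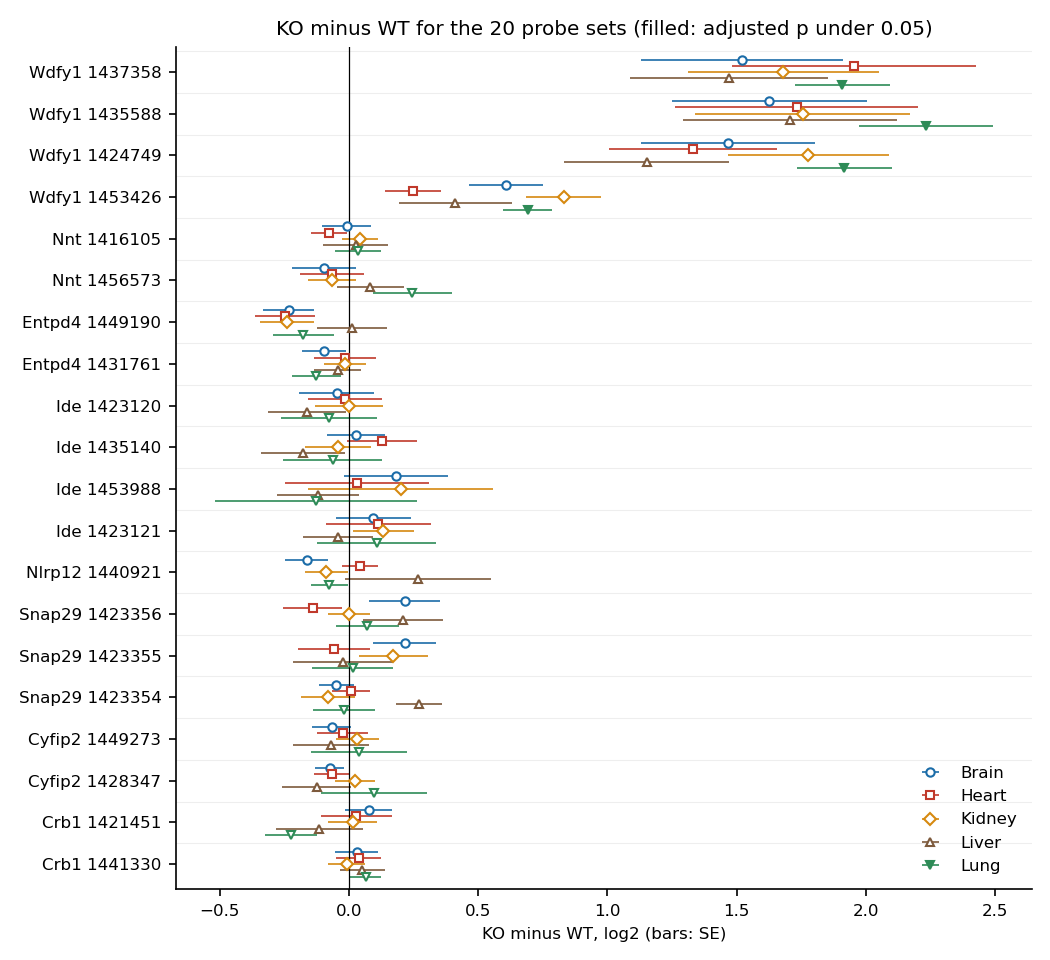
KO minus WT in log2 units on the horizontal axis for the 20 probe sets, with 1 marker for each tissue, bars of 1 SE (8 KO and 8 WT arrays) and filled markers for an adjusted p under 0.05. Filled markers are those of Wdfy1 in lung alone, and the probe sets of the other 7 genes lie between -0.25 and 0.27.

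Levels differed between tissues for most members. In 144 of 200 comparisons of a member probe set between 2 tissues the difference was called. Among all probe sets the share called was 73.4% for brain and heart, 66.9% for brain and kidney, 81.9% for brain and liver, 67.9% for brain and lung, 58.2% for heart and kidney, 63.7% for heart and liver, 74.8% for heart and lung, 66.7% for kidney and liver, 66.4% for kidney and lung and 82.1% for liver and lung. The members' share is thus near that of the array. With each animal as a fixed term, added after the data were seen, 157 of the 200 were called.

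Cyfip2 was highest in brain (11.70, SD 0.16), then kidney (10.48, SD 0.29) and heart (10.37, SD 0.21), which did not differ beyond their spread (adjusted p = 0.301, limma), then lung (7.44, SD 0.37) and liver (4.59, SD 0.30). Ide was highest in liver (10.49, SD 0.31) and heart (10.38, SD 0.32), a pair that was not called, then kidney (10.12, SD 0.26), lung (9.73, SD 0.37) and brain (9.23, SD 0.35). Entpd4 ran from kidney (9.31, SD 0.60) through heart (8.90), brain (8.16) and liver (7.49) to lung (7.15), with all 10 pairs called.

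Wdfy1 differed between tissues mainly when they were compared within a mouse. The means of 1437358_PM_at were 7.63 in kidney, 7.53 in lung, 7.47 in brain, 7.22 in liver and 6.70 in heart, each with an SD of 1.05 to 1.44 over 16 arrays. With the animal as a random block, 3 of 10 pairs were called, those of heart with kidney, lung and brain. That block used the correlation of 0.0602 over all probe sets, taken beside the means of genotype, sex and tissue. The share of 97.3% that animals had in this probe set includes genotype and sex, so it is another measure. Within genotype and sex the animals still differed in this probe set (moderated F of 81.9, limma). With each animal as a fixed term 8 of 10 pairs were called. The heart lay below the brain and the kidney in 16 of 16 animals, by 0.77 (SE 0.07; adjusted p = 4.7e-13, limma) and 0.94, and below the liver in 14 of 16, by 0.52 (adjusted p = 3.3e-08, limma). The kidney lay above the liver in 14 of 16, by 0.42 (adjusted p = 4.3e-06, limma). Brain and kidney (adjusted p = 0.0513, limma) and kidney and lung (adjusted p = 0.152, limma) were not called.

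**Figure D5:**
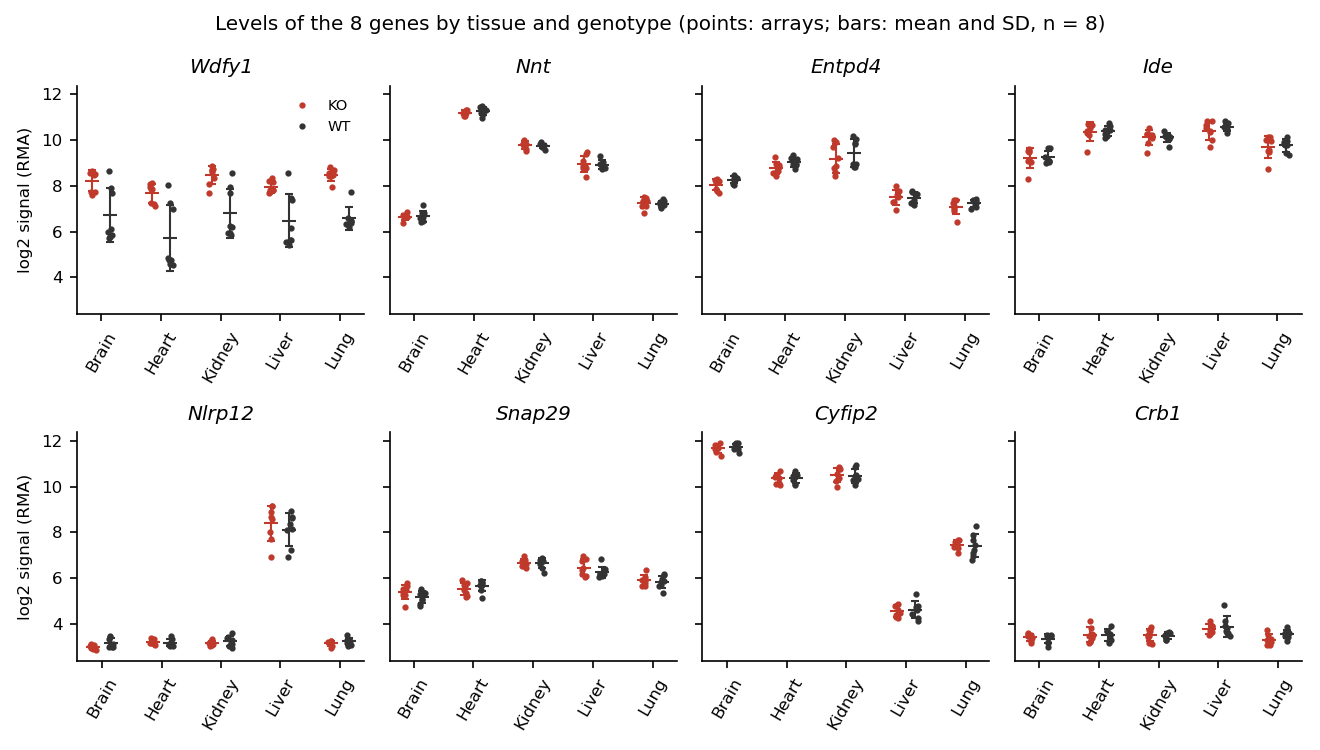
Log2 signal of the brightest probe set of each of the 8 genes by tissue, with KO and WT arrays as points beside the mean and SD of 8 arrays each. Wdfy1 has wide WT bars in brain, heart, kidney and liver and a narrower one in lung, where WT 902 and 936 gave no array. Nnt, Cyfip2 and Nlrp12 separate the tissues, and Crb1 stays under 5 throughout.

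Other genes listed as differing between C57BL/6 substrains were looked at as a group. Of 7 listed, 6 were measured, and none was called for KO against WT in any tissue. Gabra2, a GABA-A receptor subunit, was higher in KO brain by 0.48 (SE 0.18; adjusted p = 0.640, limma), with values of 7.04 to 8.43 in KO and 6.82 to 7.58 in WT. Mmrn1 in liver (-0.26, SE 0.08), Rimbp2 in heart (0.16), Dock2 in kidney (0.12) and Chl1 in lung (-0.13) had the smallest p-values elsewhere, and Fgfbp3 was the 1 gene of this list called between animals.

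Over all 9 lists 71 of 82 genes were measured, which made 355 tests of KO against WT. By limma 0 of them were called and 13 had an unadjusted p under 0.05. The 7 measured nucleoside diphosphatases were part of this, with Entpd8 in brain (-0.22) and lung (-0.11), Entpd1 in heart (0.36) and kidney (0.21) and Entpd7 in liver (0.20) having the smallest p-values. Differences over all lists ran from -0.55 to 0.66. The median difference over all probe sets ran from -0.0023 in lung to 0.0233 in kidney.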

How the data were processed

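The deposited table holds log2 signals of 45141 probe sets in 80 arrays, which the authors made with Affymetrix Expression Console, RMA and Partek, per the submitters' processing notes. Versions, probe sequences and a genome build are not given in the sources used here. After 104 control probe sets were left out, 45037 were tested. The platform annotation names 1 gene for 28898 of them, several for 551 and none for 15588, and 28689 of the 28898 were matched by gene ID to RefSeq (GRCm38.p6), used for names and gene order only. Per the labels, arrays were grouped by genotype, sex and tissue. Array values range from 2.23 to 14.06, and the number of arrays limits the precision.

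Tests used limma 3.58.1 in R 4.3.3 on the deposited log2 values, two-sided, with Benjamini-Hochberg adjustment over all probe sets and an adjusted p under 0.05 for a call. Each tissue was fitted alone with 4 groups of 4 arrays. Animals were tested with a moderated F of 12 animal terms (36 residual degrees of freedom) beside group means for tissue, genotype and sex. Tissue comparisons used all 80 arrays with the animal as a random block, since 1 number in the titles marks 1 animal, and the consensus correlation within an animal was 0.0602. After the data were seen, a fixed term for each animal (73 arrays of the 16 animals) was added for tissues, as was the test of animals without 3 hearts. The scripts were tested on simulated data.

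The members and gene lists were chosen with earlier results of these data known. Named were all members, the 3 nearest measured genes on each side, and in each list the gene with the smallest p in each tissue. For members called between animals, the 3 most and 3 least similar of 17096 genes were named too. Il1b, Ticam1, Gabra2 and Fgfbp3 are also described where their values stood out. The test of sex differences between tissues was added after the data were seen. Alternatives covered the probe sets used, renewed normalisation, dim probe sets, the prior, blocks, number ranges, each sex alone and libraries left out.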

Additional observations from a re-analysis of the deposited data

Results flagged for a closer look

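Each gene was looked at in each of the 20 groups of 4 animals, which makes 160 pairs of gene and group. In 12 of them 1 animal lay apart from the other 3 by more than Dixon's 95% critical value for 4 samples, where chance gives about 1 in 20.

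Wdfy1 held 5 of the 12. WT male 902 read 7.26 in heart (others 4.52 to 4.77, the last being WT 903, a heart with high liver markers), 7.94 in kidney (others 5.93 to 6.24) and 7.68 in brain (others 5.83 to 6.12). WT female 876 read 7.73 in lung, where the others lay at 6.31 to 6.44. KO female 982 read 7.69 in kidney, below the others at 8.63 to 8.70.

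The remaining 7 were spread over 5 genes. Nnt in the kidney of WT male 901 was 9.57, with the others at 9.75 to 9.78. Entpd4 read 7.76 in the liver of WT female 936 (others 7.18 to 7.26) and 8.02 in the brain of WT male 1262 (others 8.35 to 8.36). Ide in the kidney of KO female 781 was 9.85, below the others at 10.23 to 10.27. Snap29 in the liver of WT male 1262 was 6.83, above the others at 6.03 to 6.17. Crb1 read 4.13 in the heart of the animal labelled KO male 952 (others 3.40, in KO 962 with its high liver markers, to 3.51) and 3.15 in the brain of WT female 936 (others 3.45 to 3.46).

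The male minus female difference depended on the tissue for 3 probe sets, by limma's moderated F over all 80 arrays: Nlrp12 (adjusted p = 0.0135), Entpd4 (adjusted p = 9.4e-08) and Cyfip2 (1449273_PM_at, adjusted p = 0.0427). With each animal as a fixed term their adjusted p-values were 0.0470, 1.2e-09 and 0.00932 (limma). In that fit 4 more member probe sets, 1 of Cyfip2 and 3 of Ide, were called, among 4584 of all probe sets. For Nlrp12 both fits pool the livers with tissues near background, where the spread is smaller, so its p-values do not measure the spread of the livers.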

How the results depend on the processing

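Recomputing the results under the alternatives gave 593 values, many of them with 1 library or animal left out. For a test of 1 probe set, kept means the same direction and the same side of the threshold. For a count of calls it means a count near the first one, and a count cannot reverse. In this sense 577 were kept and 0 reversed. Leaving out an array of 1 tissue leaves the calls of the other tissues as they were. For KO against WT 4 member tests were called, and the count was 1 with 1 probe set for each gene, 7 with the animal as a replicate block over all tissues, 0 with females alone, 2 with males alone, and 3 to 5 with 1 library left out. Wdfy1 in the heart was called with the animal as a replicate block (1.96) and, with 1 KO mouse against 3 WT, among animals numbered over 1000 (2.60), as was the kidney there (1.85). Wdfy1 in the lung was not called among animals numbered under 1000 (1.39), with females alone (1.75) or with the 9 lungs of animals that gave other tissues (1.81), all with fewer samples. With 1 library left out, Wdfy1 lay at 1.30 to 1.80 in brain, 1.70 to 2.28 in heart, 1.49 to 1.94 in kidney, 1.27 to 1.76 in liver and 1.84 to 2.08 in lung. For sex, 3 member tests were called, 6 with the replicate block and 3 to 5 with 1 library left out, the 5 without the liver of KO female 994. Between animals 7 member probe sets were called, 3 with 1 probe set for each gene, and 7 to 8 with 1 animal left out. With animals compared over both genotypes and sexes, so that those differences enter the F, 8 were called. The Entpd4 F of animals fell to 4.44 without heart, 2.74 without kidney and 3.23 without the animal labelled KO male 952, and none of these was called. The cause of these changes was not tested.

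Over all probe sets, the block moved the KO calls from 1 to 61 in brain, 1 to 5 in heart, 0 to 5 in kidney, 3 to 21 in liver and 5 to 20 in lung, and animals numbered over 1000 alone, with 1 KO mouse, gave 154 in heart. Calls between animals were 1421, but 114 without heart, 60 without kidney, 637 without liver and 933 without the hearts of 903, 982 and 962. They were 2770 with animals compared over both genotypes and sexes, and 849 to 1523 with 1 animal left out. Of the 200 tissue comparisons 144 were called, 157 with the animal as a fixed term, 141 with no replicate block and 126 on WT arrays alone. Calls of dim probe sets, Crb1 above all, are limited by signal near background.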
